A study of Mus musculus with 16 samples.

Results

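The CTCF and cohesin genes described here were the 10 genes Ctcf, Smc1a, Smc3, Rad21, Stag1, Stag2, Nipbl, Wapl, Pds5a and Pds5b, chosen by name as RNAs in the tables of significant RNA–DNA pairs. All 10 were found in both libraries, among 10176 RNA names in Input and 10660 in H3K27me3-RADIP. RADIP ligates an RNA to nearby chromatin DNA through a bridge adaptor, so that each sequenced molecule gives an RNA tag and a DNA tag, and an antibody then selects the molecules on chosen chromatin. The cells were mouse embryonic stem cells (mESCs) of the PGK12.1 line, crosslinked with formaldehyde, with no genetic change or treatment named in the labels. Input comprised 8 labelled libraries from lysate kept away from the antibody, and H3K27me3-RADIP comprised 8 labelled libraries selected with an antibody against H3K27me3, the histone mark of Polycomb repression. These libraries are not all separate biological replicates. The authors had merged the libraries of each condition into 1 table, so each condition gave 1 value, and no replicate error or test between conditions was possible. All intervals below therefore cover only the counting error of listed pairs.

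CTCF is a zinc-finger protein that binds DNA and halts cohesin as it extrudes chromatin loops. Cohesin is a ring of SMC1A, SMC3 and RAD21 with either STAG1 or STAG2, which NIPBL helps to load and which WAPL, together with PDS5A or PDS5B, helps to release. In embryonic stem cells these proteins shape loops and domains, and the cohesin ring is needed for sister chromatid cohesion in every dividing cell. What was measured here was not binding of these proteins, but where the RNAs transcribed from their genes were joined to DNA.

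Both tables held only pairs in combinations of an RNA and a 25-kb bin of DNA with an adjusted P-value (q-value) up to 0.1. Input held 1305107 pairs and H3K27me3-RADIP 1415135, and 3 pairs made up 0.000230% and 0.000212% of these totals. Member bins had at least 8 pairs each, so that an unlisted bin may still have contained a few pairs that did not reach significance. Repeated tag positions, which may be amplification copies, made up 6.79% of Input and 9.74% of H3K27me3-RADIP pairs. Of 12 embryonic stem cell marker genes, 6 were found as RNAs in Input and 7 in H3K27me3-RADIP, with 2649 and 2786 pairs in all. Esrrb alone gave 2388 and 2500 of these pairs. Pou5f1, Nanog, Tdgf1, Dppa4 and Prdm14 had no listed pair in either library. Of 10 markers of other cells, 3 and 5 were found, with 49 and 96 pairs, and Sox17, T, Afp, Thy1 and Acta2 had none.

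The tags printed here were 25 nt long. The RNA tags of the members lay in the bodies of their genes on the transcribed strand. In Stag1, Pds5a and Pds5b, 1 intronic RNA tag was joined to more distinct DNA tags than any other, and these tags are shown as examples of what was captured. The Stag1 tag (mm10, chr9:100896356-100896380, plus strand) was joined to 4 distinct DNA tags in Input and 2 in H3K27me3-RADIP. The Pds5a tag (chr5:65671507-65671531, minus strand) was also joined to 4 and 2, and the Pds5b tag (chr5:150773383-150773407, plus strand) to 4 and 3. Each sequence occurred at 1 place in the primary chromosomes. The bases were read from the reference genome (GRCm38.p6) 5′ to 3′ on the strand of the RNA.
Stag1 intronic RNA tag: ttatcatgcctacttcattctttga
Pds5a intronic RNA tag: aggttggggtcaggaggaaactgtg
Pds5b intronic RNA tag: ttttggattactggacctctttgta

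The farthest pairs of Ctcf, Stag1 and Nipbl in H3K27me3-RADIP are shown because they mark the largest distances between the 2 tags of a pair. The bins of their DNA tags lay 362, 1391 and 2031 kb from the genes. For Ctcf, an intronic RNA tag (chr8:105669978-105670002, plus strand) was joined to a DNA tag 401 kb upstream (chr8:105268953-105268977, minus strand), inside the gene Fbxl8. For Stag1, an intronic RNA tag (chr9:100651405-100651429, plus strand) was joined to intergenic DNA 1.72 Mb away (chr9:102373610-102373634, plus strand). For Nipbl, an intronic RNA tag (chr15:8309748-8309772, minus strand) was joined to DNA 2.18 Mb away (chr15:10486185-10486209, minus strand), inside the gene Rad1. The farthest pairs in Input reached 329, 572 and 526 kb for the same 3 RNAs. All 6 sequences occurred once in the primary chromosomes.
Ctcf RNA tag: gtggtaaagattagtatactatcat
Ctcf DNA tag: gcaccagtgtgggccgccagggatg
Stag1 RNA tag: gcttcatatttctgaaccccccttt
Stag1 DNA tag: tctgtaaacgaaaacaacaccacaa
Nipbl RNA tag: gttgcgctcgctcatcccattgtcc
Nipbl DNA tag: gagcccctggcgccaggctgtgggt

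The question of the first comparison was whether the RNAs of these genes were more or less often joined to DNA on chromatin selected for H3K27me3 than on chromatin at large. Together, the 10 RNAs gave 2856 Input pairs and 2046 H3K27me3-RADIP pairs, which was 0.219% and 0.145% of the libraries. After TMM scaling, the log2 ratio of H3K27me3-RADIP over Input was -0.51 (95% counting interval -0.60 to -0.43). The log2 ratio was -0.5 or lower for 6 of the 10, where 21.9% of all 8158 protein-coding RNAs (pcRNAs) found in both libraries were as low. None of the 10 reached 0.5 or higher, against 20.2% of these pcRNAs. The median log2 ratio was -0.58 over the 10 members and -0.01 over all shared pcRNAs.

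Ctcf, the gene of the loop anchor protein, had 200 Input pairs and 248 H3K27me3-RADIP pairs, the opposite direction from most members. Its log2 ratio was 0.28 (0.0035 to 0.55), and the median over shared pcRNAs of chromosome 8, where it lies, was 0.13. Ctcf gave 0.170% of the pairs of chromosome 8 RNAs in Input and 0.174% in H3K27me3-RADIP, at rank 90 of 659 RNA names and rank 84 of 699. Its share among the RNAs of its chromosome was thus nearly equal in both libraries.

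Of the ring genes, Smc3 had the fewest, 43 Input pairs and 51 H3K27me3-RADIP pairs, and its log2 ratio of 0.21 had an interval that spanned 0 (-0.40 to 0.83). Rad21, the kleisin that closes the ring, had 168 and 103 pairs, and a log2 ratio of -0.74 (-1.11 to -0.38). Smc1a had 245 and 182 pairs, with a log2 ratio of -0.46 (-0.75 to -0.18). Smc1a lies on the X chromosome, whose shared pcRNAs had a median log2 ratio of -0.41, and scaled to that median its log2 ratio was -0.05. The value of Smc1a was thus close to that of other RNAs of its chromosome.

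The alternative ring subunits Stag1 and Stag2 were both lower in H3K27me3-RADIP. Stag1 had the most of all members, 829 Input pairs and 594 H3K27me3-RADIP pairs, which was 29.0% of the member pairs in each library, and its log2 ratio was -0.51 (-0.67 to -0.36). Stag2, also on the X chromosome, had 150 and 57 pairs. Its log2 ratio of -1.43 (-1.90 to -0.98) was the lowest of the 10, and its interval lay wholly below both -0.5 and the median of X chromosome pcRNAs.

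Nipbl, the loader gene, had 400 Input pairs and 261 H3K27me3-RADIP pairs and a log2 ratio of -0.65 (-0.88 to -0.42). Of the release genes, Wapl had 164 and 93 pairs with a log2 ratio of -0.85 (-1.23 to -0.48), which was -0.46 over bins with q-values up to 0.01. Pds5a had 434 and 269 with a log2 ratio of -0.72 (-0.95 to -0.50), and Pds5b had 223 and 188 with a log2 ratio of -0.28 (-0.57 to 0.0079). The loader and all 3 release genes were thus on the low side, although for Pds5b the interval reached 0. Across the 10, the counting interval lay below 0 for 7 RNAs and above 0 for Ctcf alone. Of all shared pcRNAs, 17.5% and 18.5% had such intervals. The lower limit of Ctcf was only 0.0035, and its log2 ratio was 0.19 with library totals in place of TMM factors. Repeated tag positions made up 0 to 8.93% of a member's Input pairs and 8.05% to 17.5% of its H3K27me3-RADIP pairs, and counted once they left the same number, 6, past the limit.

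**Figure D1:**
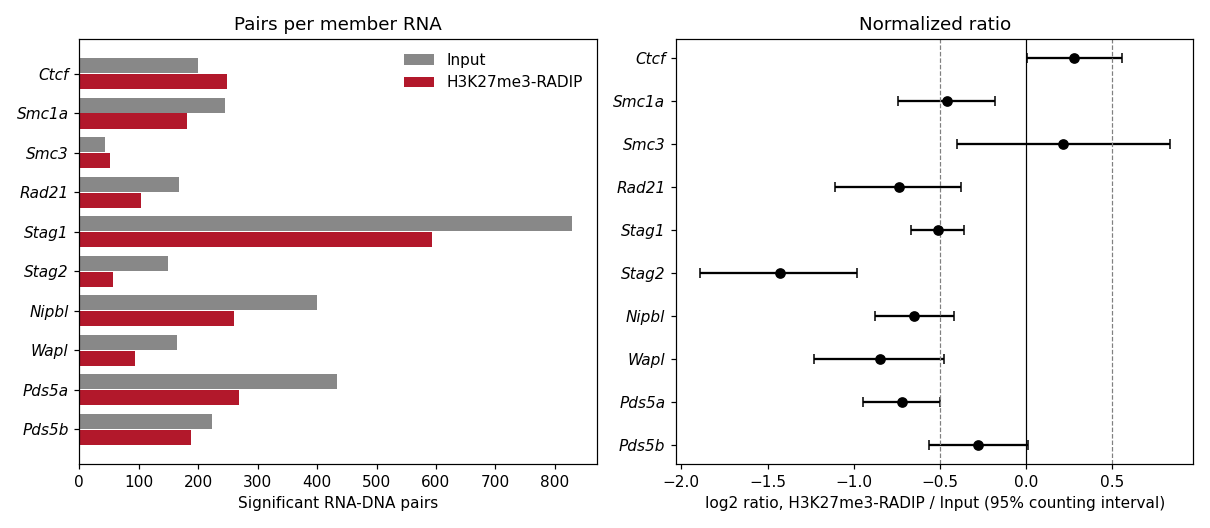
Left, significant RNA–DNA pairs of each member RNA in Input (grey bars) and H3K27me3-RADIP (red bars). Right, log2 ratio of H3K27me3-RADIP over Input after TMM scaling, with bars for the 95% counting interval and dashed lines at -0.5 and 0.5. Ctcf and Smc3 lie above 0, at 0.28 and 0.21, and the other members lie below, with Stag2 lowest at -1.43.

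The genes differ in length from 29.5 kb (Rad21) to 362 kb (Stag1), so their levels were compared as pairs per kb of gene. In Input, Rad21 led with 5.69 pairs per kb, followed by Smc1a with 5.30, Pds5a with 4.69 and Ctcf with 4.31. The exact Poisson intervals of neighbours among these 4 overlapped, so that their order was not resolved. The gap from Ctcf down to Nipbl, at 2.60, was larger than the intervals. Nipbl, Stag1 at 2.29 and Wapl at 2.21 overlapped in turn, Pds5b was apart from them at 1.63, and Stag2 at 1.17 and Smc3 at 0.946 were last. In H3K27me3-RADIP, Ctcf led with 5.35 pairs per kb, apart from Smc1a at 3.93. Rad21 followed with 3.49 and Pds5a with 2.91, then Nipbl with 1.70, Stag1 with 1.64, Pds5b with 1.37, Wapl with 1.26 and Smc3 with 1.12, and Stag2, at 0.446, was apart from Smc3 as the last. Ctcf was thus 1 of the unresolved leaders in Input and stood apart as the first in H3K27me3-RADIP.

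The pairs were then divided by whether the DNA tag lay in the member's own gene. Every one of the 4902 member pairs joined an RNA to DNA of its own chromosome. Inside the own gene there were 1773 Input pairs and 950 H3K27me3-RADIP pairs, a log2 ratio of -0.93 (-1.05 to -0.82). Outside it there were 1083 and 1096, a log2 ratio of -0.02 (-0.14 to 0.11). The outside value rests in part on Ctcf, with 71 and 183 pairs, and 6 of the 10 members were below 0 outside as well, against 31.8% of 3269 shared pcRNAs with outside pairs in both libraries and at least 40 cis pairs in each. Inside pairs were lower for all 10 members, where 70.5% of 3461 well-covered pcRNAs were also lower. Well-covered pcRNAs were those shared pcRNAs with at least 40 cis pairs in each library, 3661 in all, of which 3461 had a gene position in the annotation used. The median log2 ratio inside was -0.85 over the members and -0.25 over these pcRNAs.

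In each gene body the same direction was seen. For Ctcf, inside pairs were 129 (Input) and 65 (H3K27me3-RADIP), a log2 ratio of -1.02 (-1.47 to -0.58), although Ctcf as a whole was higher. For Stag2 they were 127 and 39, a log2 ratio of -1.74 (-2.29 to -1.21), and for Stag1 562 and 302, a log2 ratio of -0.93 (-1.14 to -0.72). Pds5a had 272 and 125 inside pairs, with a log2 ratio of -1.15 (-1.47 to -0.84), and Nipbl had 223 and 114, with a log2 ratio of -1.0003 (-1.34 to -0.67). For Smc1a, Rad21, Wapl and Pds5b the log2 ratio lay from -0.78 to -0.51, with intervals below 0. Only the interval of Smc3, with 37 and 25 inside pairs, spanned 0, so that 9 members had an interval below 0, against 34.9% of these pcRNAs.

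By bins, 54 bins that overlapped the member genes were listed in at least 1 library, and 50 of them in both. Of these 50, 44 had fewer pairs in H3K27me3-RADIP, 4 had equal numbers and 2 had more, where 53.6% of the 23192 such bins of all shared pcRNAs had fewer. The median log2 ratio was -0.79 over the member bins and -0.13 over all such bins, and after scaling 48 of the 50 were below 0, against 59.9%. The bins that were higher were the last bin of Ctcf, with 51 and 60 pairs, and the bin of the Stag1 gene centred 14.7 kb past its transcription start, with 23 and 28. In Stag1 the lowest bin was centred 190 kb past the start, with 57 pairs in Input against 10 in H3K27me3-RADIP and a log2 ratio of -2.54, followed by the bins centred 64.7 and 89.7 kb past the start, at -1.55 and -1.91. In Stag2, the bins centred 88.2 and 113 kb past the start had 21 and 27 pairs in Input and were not listed in H3K27me3-RADIP.

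**Figure D2:**
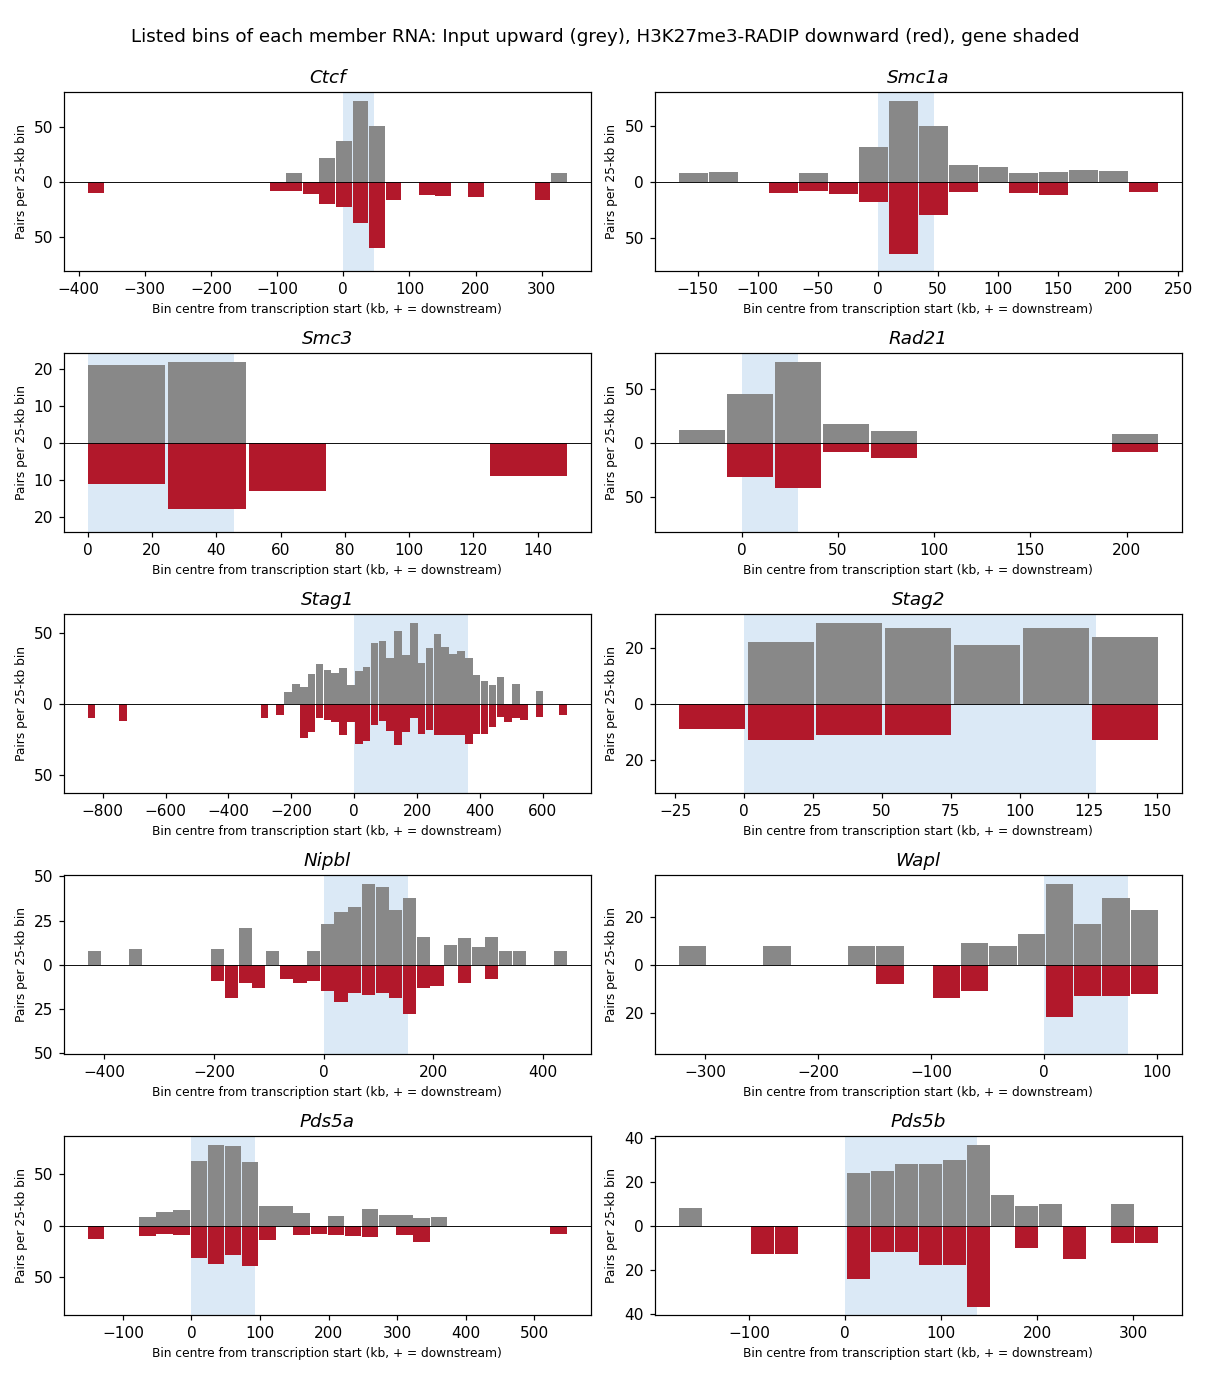
Pairs per 25-kb bin of each member RNA against the distance of the bin centre from the gene's transcription start (kb, positive downstream), with Input drawn upward in grey, H3K27me3-RADIP downward in red and the gene shaded. Each panel has its own axes, and the bins of Stag1 at 1765 kb (9 pairs) and of Nipbl at 2043 kb upstream (8 pairs), both listed in H3K27me3-RADIP alone, are beyond the drawn range. In the shaded bodies the grey bars exceed the red ones in 44 of the 50 bins listed in both and equal them in 4, while outside the bodies red bars without a grey partner are seen for 8 bins of Ctcf, 2 of Smc3, 1 of Wapl and several each of Smc1a, Stag1, Nipbl, Pds5a and Pds5b.

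Outside the own gene the members diverged. Ctcf had 71 outside pairs in Input against 183 after selection, a log2 ratio of 1.33 (0.93 to 1.75). Smc3 had 6 and 26, a log2 ratio of 2.08 (0.77 to 3.65). Of their outside bins, 8 of Ctcf and 2 of Smc3 were listed in H3K27me3-RADIP alone. Input counted as 0 in these bins, although it may have held unlisted pairs, which the intervals do not cover. Wapl went the other way from Ctcf and Smc3, with 87 and 47 outside pairs and a log2 ratio of -0.92 (-1.47 to -0.39). Rad21 did as well, with 92 and 50 and a log2 ratio of -0.91 (-1.44 to -0.40), as did Smc1a, with 125 and 96 and a log2 ratio of -0.41 (-0.81 to -0.02). The intervals of Stag1 (267 and 292 pairs), Stag2 (23 and 18), Nipbl (177 and 147), Pds5a (162 and 144) and Pds5b (73 and 93) spanned 0. The median log2 ratio outside was -0.25 over the members and 0.33 over the 3269 pcRNAs given above, so that as a group the members did not show the higher outside level of the typical pcRNA.

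**Figure D3:**
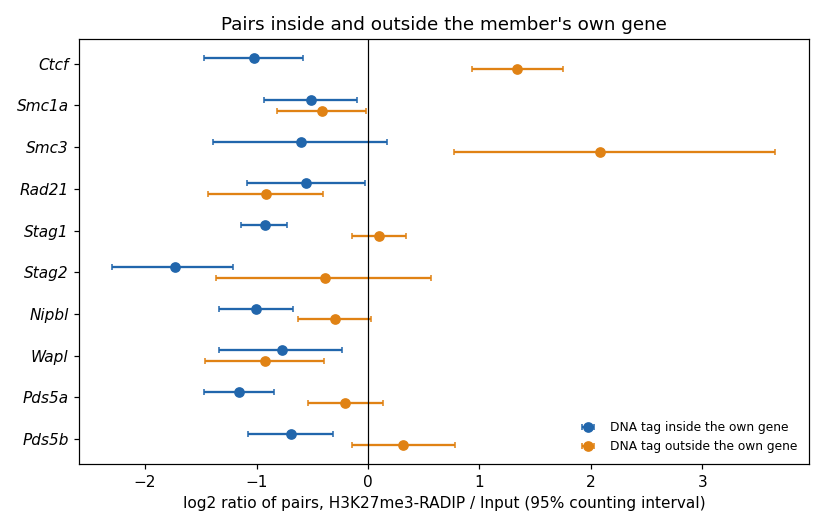
Log2 ratio of pairs, H3K27me3-RADIP over Input, for DNA tags inside (blue) and outside (orange) each member's own gene, with bars for the 95% counting interval. All 10 blue points lie below 0, while the orange points run from -0.92 (Wapl) to 2.08 (Smc3).

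As a share of its own pairs, DNA outside the gene made up more of the contacts in H3K27me3-RADIP for 8 of the 10 members, where 79.6% of the 3461 well-covered pcRNAs did so. Over all member pairs the share was 37.9% (36.2 to 39.7, Wilson) in Input against 53.6% (51.4 to 55.7) after selection, and differed by 15.6 percentage points (Newcombe interval 12.8 to 18.4). For Ctcf it was 35.5% and 73.8%, the largest difference of the members at 38.3 points (29.3 to 46.4). Without Ctcf, the difference over the other members was 12.7 points, and over all members in bins listed in both libraries it was 10.2 points. For Smc3 the share was 13.95% and 51.0%, a difference of 37.03 points (18.2 to 52.1). Stag1, Stag2, Nipbl, Pds5a and Pds5b differed by 12.1 to 17.0 points, each with an interval above 0. With Ctcf and Smc3, 7 members had such an interval, against 48.8% of these pcRNAs, whose median difference was 8.74 points. The intervals of Smc1a, Rad21 and Wapl spanned 0, at 1.73, -6.22 and -2.51 points.

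Distances between the tags of a pair gave a related picture. H3K27me3-RADIP had the longer median distance for 7 of the 10 members, against 78.3% of the 3661 well-covered pcRNAs. For Ctcf the median was 13.4 kb (Input) and 39.7 kb (H3K27me3-RADIP), a ratio of 2.97 and the largest of the members. Stag1, the longest gene, had medians of 86.5 and 140 kb, and Nipbl had 60.1 and 75.7 kb. Pds5a had 30.5 and 47.8 kb, Pds5b 32.8 and 47.4 kb, Stag2 15.2 and 22.4 kb and Smc3 11.3 and 17.8 kb. For the remaining members the median was slightly shorter, with 19.6 and 19.0 kb for Smc1a, 13.1 and 11.001 kb for Rad21 and 42.9 and 41.9 kb for Wapl. The median of the members' ratios was 1.46, and that of well-covered pcRNAs was 1.40.

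Long-range pairs, with tags over 100 kb apart, made up 28.1% (26.5 to 29.8) of member pairs in Input against 36.8% (34.7 to 38.9) after selection, and differed by 8.64 points (5.98 to 11.3). The share was higher in H3K27me3-RADIP for 9 of the 10, against 65.4% of the 3661 well-covered pcRNAs, and the interval of the difference lay above 0 for 6, against 41.1% of these pcRNAs. Over all cis pairs of the libraries the shares were 36.4% and 43.7%, both above those of the members, and the median difference was 4.14 points over well-covered pcRNAs and 9.18 over the members. The 6 with an interval above 0 were Ctcf (6.50% and 27.4%), Smc3 (0 of 43 pairs and 11.8%), Stag1 (46.8% and 58.2%), Stag2 (1.33% and 10.5%), Pds5a (21.4% and 35.3%) and Pds5b (20.6% and 29.8%). Rad21 (4.76% and 7.77%), Nipbl (40.2% and 43.3%) and Wapl (23.2% and 26.9%) had intervals that spanned 0. Smc1a alone was lower, with 22.0% and 15.9%, and its interval also spanned 0. Pairs over 1 Mb apart were found for Stag1 (19 pairs) and Nipbl (8 pairs), in H3K27me3-RADIP alone. Counted only in bins listed in both libraries, the difference in the long-range share over all members was 3.95 points, below the interval of the value over all bins. Distance within a long gene counts in these shares. Measured from the nearest end of the gene, the shares over 100 kb were 13.8% in Input and 20.9% in H3K27me3-RADIP.

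**Figure D4:**
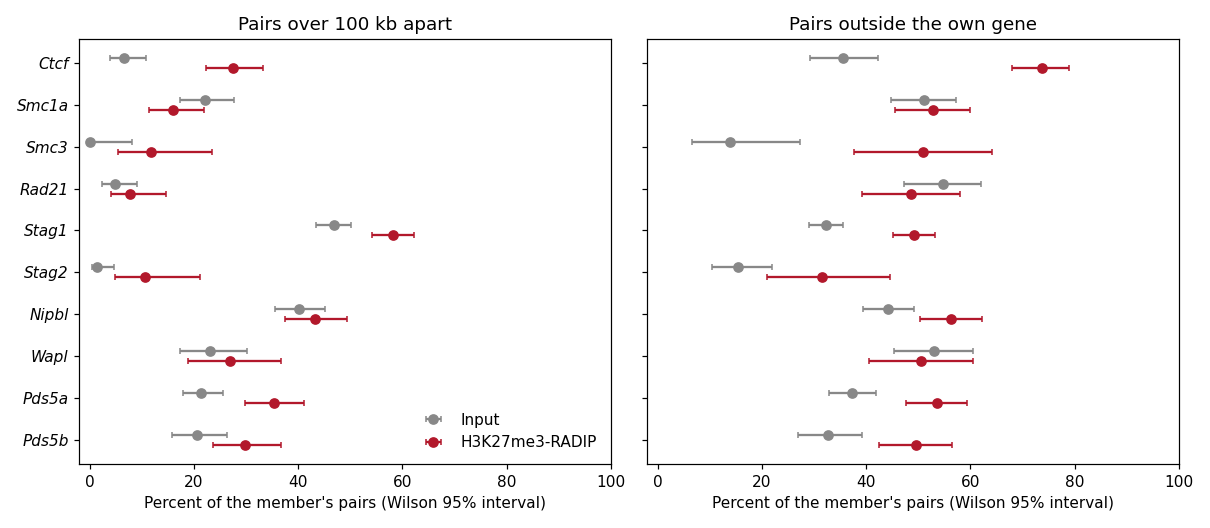
Percent of each member's pairs with tags over 100 kb apart (left) and with the DNA tag outside the own gene (right), for Input (grey) and H3K27me3-RADIP (red), with Wilson 95% intervals as bars. Ctcf shows the widest separation in both panels, from 6.50% to 27.4% and from 35.5% to 73.8%. Intervals overlap in both panels for Smc1a, Rad21 and Wapl, in the left one also for Smc3, Nipbl and Pds5b, and in the right one also for Stag2.

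The number of listed bins was similar in both libraries, 121 for Input and 128 for H3K27me3-RADIP, and 91 were shared. The number was lower in H3K27me3-RADIP for 5 members, where 24.5% of the 3661 well-covered pcRNAs had fewer bins. Outside the own genes, 41 of 104 bins were listed in both libraries, 27 in Input alone with 266 pairs and 36 in H3K27me3-RADIP alone with 405 pairs. Of the 41 shared outside bins, 23 had fewer pairs in H3K27me3-RADIP, 6 had equal numbers and 12 had more. These counts of outside bins were not made over all shared pcRNAs, so whether they are particular to the members is not known.

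Ctcf had 6 bins in Input and 13 in H3K27me3-RADIP, and 8 of the latter were not listed in Input. Its outside bin with the most pairs in both libraries was the same, 11.6 kb upstream of the gene, with 22 and 20 pairs, and it overlapped Agrp and Ripor1. Downstream, the bins 17.1, 67.1, 92.1, 142 and 242 kb past the gene end held 16, 12, 13, 14 and 16 pairs in H3K27me3-RADIP and were not listed in Input. The bin at 242 kb overlapped Pskh1, Ctrl, Psmb10, Lcat and Slc12a4, and the bin at 362 kb upstream, with 10 pairs, overlapped D230025D16Rik, B3gnt9, Tradd, Fbxl8 and Hsf4. Counted only in bins listed in both libraries, the log2 ratio of Ctcf was -0.32, so that its higher level in H3K27me3-RADIP rested on the bins listed there alone. The same held for Smc3, at -0.52 in shared bins. Its 2 outside bins, 4.17 kb and 79.2 kb downstream with 13 and 9 pairs, were listed in H3K27me3-RADIP alone, and the farther one overlapped Rbm20.

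Of the other ring genes, Smc1a had 12 bins in Input and 10 in H3K27me3-RADIP. Its leading outside bin in Input was 12.3 kb downstream, with 15 and 9 pairs and no other protein-coding gene, and in H3K27me3-RADIP it was 87.3 kb downstream in Iqsec2, with 9 and 12. Rad21 had 6 and 5 bins, led by a bin 12.2 kb downstream in Input, with 17 and 8 pairs, and by a bin 37.2 kb downstream in H3K27me3-RADIP, with 11 and 14. Neither overlapped another protein-coding gene. Stag2 had 6 and 5 bins, all of which overlapped its own gene, so that its outside pairs lay just beyond the gene ends.

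Stag1 had the most bins, 30 in Input and 36 in H3K27me3-RADIP. Its leading outside bin in Input was 97.8 kb upstream, over Il20rb and Nck1, with 28 and 10 pairs. In H3K27me3-RADIP it was 148 kb upstream, with 12 and 24 pairs and no protein-coding gene. The RNA also had 12 pairs in a bin 723 kb upstream over Sox14, 10 in a bin 823 kb upstream and 9 in a bin 1391 kb downstream over Ephb1, none of which was listed in Input. Far contacts of Stag1 were thus listed on both sides of the gene.

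Nipbl had 21 bins in Input and 19 in H3K27me3-RADIP. Its leading outside bin in Input was 131 kb upstream, with 21 and 10 pairs, and the next bin, 156 kb upstream, led in H3K27me3-RADIP with 19 pairs and was not listed in Input. The pairs at 2031 kb upstream, 8 in number, were in a bin over Brix1 and Rad1. Nipbl pairs downstream of the gene were 111 in Input and 58 in H3K27me3-RADIP, while those upstream were 66 and 89. The balance of the outside contacts of Nipbl thus lay downstream in Input and upstream in H3K27me3-RADIP.

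The release genes differed in the number of bins. Wapl had 11 bins in Input and 7 in H3K27me3-RADIP. Its leading outside bin in Input was 2.02 kb downstream, with 23 and 12 pairs, and in H3K27me3-RADIP it was 73.9 kb upstream over Ldb3 and Opn4, with 14 pairs and none listed in Input. Pds5a had 16 and 17 bins. In Input 2 bins tied at 19 pairs, 5.72 and 30.7 kb downstream, both over Ube2k, and in H3K27me3-RADIP they held 14 pairs and no listed pair. The leading outside bin of Pds5a in H3K27me3-RADIP was 231 kb downstream over Klb, with 8 and 16 pairs. Pds5b had 11 and 12 bins, led in Input by a bin 14.3 kb downstream with 14 pairs and in H3K27me3-RADIP by a bin 89.3 kb downstream with 15, each listed in 1 library alone.

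The region of the RNA tag was mostly intronic and similar in both libraries. Of the member pairs, 86.5% (85.2 to 87.7) had an intronic RNA tag in Input against 88.1% (86.6 to 89.5) after selection, and differed by 1.64 points (-0.27 to 3.50). Over all pcRNA pairs the shares were 88.9% and 89.6%. Tags in coding sequence made up 6.23% and 5.52% of member pairs, those in the 3′UTR 3.19% and 2.39%, those in the 5′UTR 1.44% and 1.27%, and those in other exon parts 2.66% and 2.69%. Intronic tags do not tell unspliced RNA from excised introns.

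Members differed in region more than the libraries did. The intronic share in Input ran from 75.6% for Rad21 to 94.9% for Stag1. Only for Stag1 did the interval of the difference leave out 0, with 91.9% after selection, or -3.01 points (-5.80 to -0.43), where 7.87% of the 3661 well-covered pcRNAs had such an interval. Rad21 had 22 tags in its 3′UTR in Input and 10 in H3K27me3-RADIP, and Pds5a had 50 and 28 in exon parts outside the coding sequence and UTRs. Smc1a had the most tags in coding sequence, 37 and 27. Per kb of sequence, exons gave more pairs than introns in Input for 9 members, all but Ctcf, where 67.9% of 3460 well-covered pcRNAs with an intron did so. Examples are Rad21 with 9.69 pairs per kb of exon and 5.03 per kb of intron and Smc1a with 9.36 and 4.72. Ctcf had 4.12 and 4.34. In H3K27me3-RADIP, Pds5a (2.79 and 2.94) and Pds5b (1.12 and 1.39) were also lower per kb of exon, and Ctcf had 5.35 in both. Exons thus led there for 7 members, against 66.9% of these pcRNAs. No interval was computed for these densities, and some rest on few exonic tags, 8 for Smc3 in Input and 11 for Pds5b in H3K27me3-RADIP. Tags from the first 20% of the gene made up 24.2% of member pairs in Input and 24.8% in H3K27me3-RADIP, so that position in the gene also differed little.

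**Figure D5:**
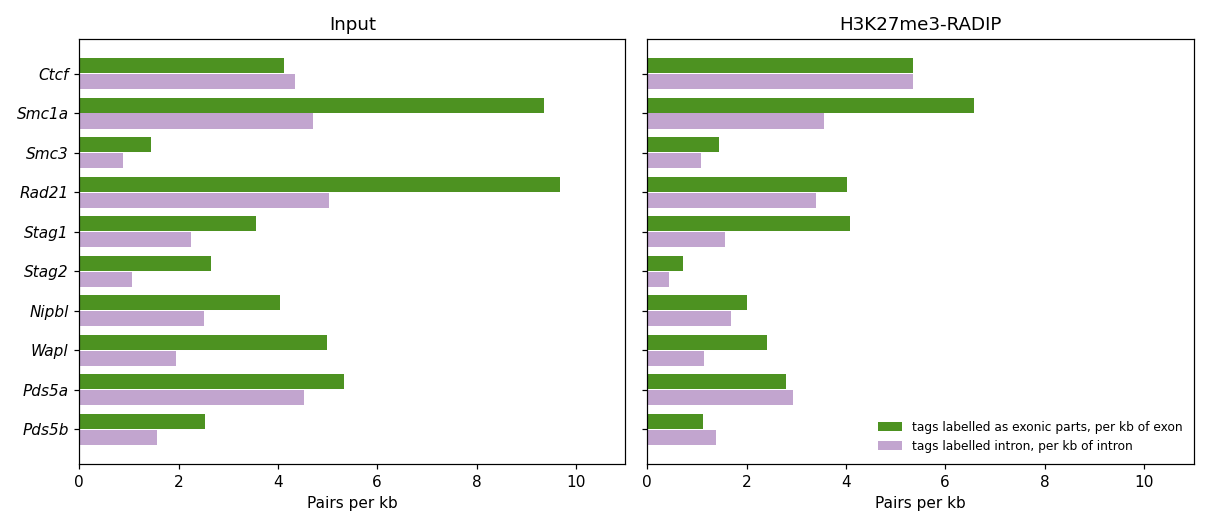
Pairs per kb of exon (green, RNA tags labelled as coding sequence, UTR or other exon) and per kb of intron (purple) for each member RNA, in Input (left) and H3K27me3-RADIP (right). Exon density is highest in Rad21 and Smc1a in Input, at 9.69 and 9.36 pairs per kb, and only Ctcf has the lower value for exons there, 4.12 against 4.34.

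The reverse direction, other RNAs joined to DNA in the bins of the member genes, was not used to choose the members. Such pairs numbered 389 in Input and 224 after selection, and the log2 ratio per library total was -0.91 (-1.16 to -0.67). They were lower at 7 member genes, higher at Stag2 and not listed at Smc3 and Stag1, where 48.5% of the 6979 genes of shared pcRNAs with such pairs were lower. Most came from RNAs of neighbouring genes. Ube2k gave 92 and 40 pairs at Pds5a, and Huwe1 gave 69 and 49 at Smc1a. Ext1 (38 and 8), Eif3h (20 and 9) and Trps1 (18 and 10) were joined to Rad21, the first and the last from over 1 Mb away. Cplane1 gave 40 and 14 pairs at Nipbl, where Nup155 gave 9 in H3K27me3-RADIP alone. Gm5914 gave 23 and 12 pairs at Ctcf, where Ranbp10 had 11 in Input alone and Acd and Gfod2 11 each in H3K27me3-RADIP alone. At Pds5b there were 17 and 12 pairs of N4bp2l2, and 9 of Fry in Input alone.

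A few of these contacts came from other chromosomes or were found at 1 gene in 1 library. Gm22973 RNA was joined to Wapl with 9 pairs in Input and to Smc1a with 12 pairs in H3K27me3-RADIP, each from another chromosome. Wapl also had 8 pairs of Bmpr1a in Input, and no other RNA was listed there in H3K27me3-RADIP. At Smc1a, Ribc1 gave 8 pairs in Input alone. At Stag2, Xiap gave 11 pairs in H3K27me3-RADIP and none in Input.

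Among 35 other genes of the pathway, comprising further cohesin, condensin and SMC5/6 genes and factors known to act with CTCF, 26 were found as RNAs in both libraries. Of these 26, the log2 ratio was -0.5 or lower for 11 and 0.5 or higher for 2, where 21.9% and 20.2% of all shared pcRNAs were, with a median of -0.38. Among the 19 with at least 50 pairs, 6 were as low and 2 as high, and over the 26 the counting interval lay below 0 for 8 and above 0 for 5, against 17.5% and 18.5% of all shared pcRNAs. Esco2 (23 pairs) and Top2b (18) were listed in Input alone, and Ctcfl (7) and Nsmce1 (13) in H3K27me3-RADIP alone. Among those with at least 50 pairs, the condensin subunit gene Smc4 was lowest, with 92 and 40 pairs and a log2 ratio of -1.23 (-1.81 to -0.68). The meiotic cohesin gene Smc1b followed with 51 and 29 pairs and a log2 ratio of -0.85 (-1.56 to -0.16), and the SMC5/6 gene Smc6 with 66 and 39 and a log2 ratio of -0.79 (-1.40 to -0.20). The highest was Top2a, a topoisomerase gene, with 30 and 55 pairs and a log2 ratio of 0.84 (0.18 to 1.53). The condensin gene Ncapd2 had 27 and 47 pairs and a log2 ratio of 0.77 (0.05 to 1.51), and Yy1, the gene of a DNA-binding protein linked to loops, had 289 and 407 and a log2 ratio of 0.46 (0.24 to 0.68). Past the limit of 0.5, low genes thus outnumbered high ones, 11 to 2. Of these 2, only Ncapd2 is a cohesin, condensin or SMC5/6 gene.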

How the data were processed

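RNA–DNA pairs were measured in PGK12.1 mESCs by RADIP with an H3K27me3 antibody and in Input. The authors split reads at the adaptor, mapped tags to mm10 with BWA (0.7.15-r1140 in the submitters' processing notes), kept unique pairs, removed DNA tags in blacklisted regions, annotated RNA tags with GENCODE genes, and tested each RNA and 25-kb bin with a negative binomial model. The deposited tables carry the authors' p-values and adjusted p-values (q-values, up to 0.1), 1 pair per line, with replicates merged (8 labelled libraries for each condition, from 4 biological replicates by the study's methods). Keeping uniquely mapped tags leaves out sequence with several equal matches, and the filter on q-values removes thin contacts, so that unlisted bins are not empty bins.

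Here pairs were counted per RNA name (Python 3.11.15, pandas 2.3.3, scipy 1.17.1). Log2 ratios used TMM factors over the 8158 pcRNAs found in both libraries (trimming 30% of ratios and 5% of levels), with exact conditional binomial intervals. Shares have Wilson and differences Newcombe intervals, at 95%. Distance ran between tag centres. All 10 gene identifiers matched an older GENCODE release (M21), which gave gene positions and exons. The computation of ratios was tested on simulated counts per gene, which had no bins and no filter on q-values. The limit of 0.5 and the 100-kb limit follow the study's methods. Members and lists were chosen with earlier results of these data known. Named were all members, their leading outside bins, the 2 leading other RNAs at each gene and library, and pathway genes with the 3 highest and 3 lowest ratios among those with at least 50 pairs; further bins were named after their values were seen.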

Additional observations from a re-analysis of the deposited data

How the results depend on the processing

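Of 41 alternative values computed for the main results, 36 stayed within the counting interval of a difference or ratio, or within 1.5 times a count, and none of these 41 turned a direction. The count of members past the limit of 0.5 was 6, and ran from 5 to 7 under all alternatives, always on the low side. With library totals in place of TMM factors Smc1a also passed. The difference in the share of pairs over 100 kb apart was 3.95 points where only bins listed in both libraries were counted. The difference in the share outside the own gene was 10.2 points in such bins and 12.7 points without Ctcf, both chosen after seeing the data. The count of other pathway genes past the limit was 13, and was 8 with RNAs of at least 50 pairs and 8 in bins listed in both libraries. At q-values up to 0.01 or bins of at least 10 pairs, the members had 92 bins in Input and 99 in H3K27me3-RADIP. Of 90 alternative values for single members, 5 moved out of the counting interval. The log2 ratio was -0.46 for Wapl and -0.98 for Pds5a at q-values up to 0.01. Values under the limit of 0.5 did turn sign, to -0.32 for Ctcf and -0.52 for Smc3 in bins listed in both libraries and to -0.05 for Smc3 at q-values up to 0.01. The causes of these shifts were not tested. Depth limits Smc3 most, with 43 and 51 pairs. No paired analysis was possible because the authors merged the replicates of each condition into 1 table.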
